A study of Mus musculus with 6 samples.

Results

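The tumour suppressor p53 and 9 genes that it activates were examined in whole pancreas of Sirt1-deficient and control mice. The 10 genes, Trp53, Cdkn1a, Mdm2, Bax, Bbc3, Ccng1, Sesn1, Zmat3, Trp53inp1 and Phlda3, were chosen by name, and each was read by the array's transcript cluster (a set of probes assigned to a gene) annotated with its symbol alone. Of these 10 genes, 8 had such a cluster, out of 22180 genes tested in all. Trp53 itself and Bax, the pore-forming killer protein, had none and were not analysed here, so the results below describe p53 target genes and not p53.
The Sirt1-deficient mice (Pdx1Cre;Sirt1ex4F/F, 3 males of 6 months) lack exon 4 of Sirt1 in cells where Cre was active, and the control mice (Pdx1Cre, 3 males of 6 months) carry the same Cre transgene with Sirt1 intact. The Cre line was B6.FVB-Tg(Ipf1-cre)6Tuv/J and the Sirt1 allele came from B6;129-Sirt1tm1Ygu/J, so the genotypes may also differ in strain background. Cre was driven by a fragment of the Pdx1 promoter, which acts as a mosaic in exocrine tissue, and the recombined gene still makes a truncated Sirt1 protein. Each pancreas gave 1 array, and no pooling was described. Values are log2 expression, on which a difference of 1 is a doubling.

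Sirt1 is a deacetylase of the nucleus, and p53 is among its best known substrates. Removing acetyl groups from p53 weakens its activity as a transcription factor. Since p53 is controlled mainly through the stability and modification of the protein, the transcripts of its target genes are the usual readout of its activity. Those targets hold the cell cycle (Cdkn1a), start apoptosis (Bax, Bbc3), switch p53 off again (Mdm2, Ccng1) or protect cells from oxidative and metabolic stress (Sesn1, Trp53inp1).

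p53 binds DNA as a tetramer at a pair of similar 10-base half-sites, and the promoters of these genes were searched for the p53 consensus half-site. The windows run from 250 bases before to 50 bases after a RefSeq start site (assembly GRCm38.p6), and 8 of the 10 genes, with 12 start sites between them, were in the promoter table; Zmat3 and Trp53inp1 were not. Cdkn1a was the only 1 of these 8 genes with a pair of half-sites, allowing 1 mismatch outside the 4-base core of each and 0 to 13 bases between them. Such a pair stood in 1.39% of all 32851 promoters, and a pair with no bases between the half-sites, as in Cdkn1a, in 0.122%. The windows of the 4 measured genes with an exact half-site are shown, since they include the only gene with a pair (Cdkn1a) and the gene with the most even level (Ccng1). Capitals mark the half-sites, whose consensus reads alike on both strands.
Cdkn1a, first start site, chr17:29090729-29091028, plus strand: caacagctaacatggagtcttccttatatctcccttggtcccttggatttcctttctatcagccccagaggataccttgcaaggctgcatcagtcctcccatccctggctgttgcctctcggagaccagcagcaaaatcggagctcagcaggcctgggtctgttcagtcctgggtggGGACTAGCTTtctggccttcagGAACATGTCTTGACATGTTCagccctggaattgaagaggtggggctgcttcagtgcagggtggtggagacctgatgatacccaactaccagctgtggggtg
Sesn1, second start site, chr10:41887189-41887488, plus strand: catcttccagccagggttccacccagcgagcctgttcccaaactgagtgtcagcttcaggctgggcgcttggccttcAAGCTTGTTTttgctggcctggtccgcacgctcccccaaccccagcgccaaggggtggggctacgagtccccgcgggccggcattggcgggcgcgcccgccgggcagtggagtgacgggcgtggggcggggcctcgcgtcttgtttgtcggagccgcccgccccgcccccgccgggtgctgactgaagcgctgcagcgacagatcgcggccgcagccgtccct
Mdm2, chr10:117710709-117711008, minus strand: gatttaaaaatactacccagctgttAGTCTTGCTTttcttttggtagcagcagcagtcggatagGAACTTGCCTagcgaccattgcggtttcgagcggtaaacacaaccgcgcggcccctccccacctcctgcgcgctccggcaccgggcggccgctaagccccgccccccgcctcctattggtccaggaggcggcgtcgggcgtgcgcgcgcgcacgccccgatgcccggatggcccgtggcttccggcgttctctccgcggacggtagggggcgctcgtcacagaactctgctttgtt
Ccng1, chr11:40755237-40755536, minus strand: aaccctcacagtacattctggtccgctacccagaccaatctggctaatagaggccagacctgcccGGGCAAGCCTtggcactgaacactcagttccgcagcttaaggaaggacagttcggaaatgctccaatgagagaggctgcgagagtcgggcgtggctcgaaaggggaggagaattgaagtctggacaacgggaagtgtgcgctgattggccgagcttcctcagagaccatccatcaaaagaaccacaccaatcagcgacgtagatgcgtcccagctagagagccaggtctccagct
In Cdkn1a the capitals hold 3 half-sites, of which the first 2 are exact and the last has 1 mismatch. The last 2 abut as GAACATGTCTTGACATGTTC at chr17:29090928-29090947, beginning 51 bases before the first start site and 2841 bases before the second. The windows of the second Cdkn1a start site, of the first Sesn1 start site and of Phlda3 held no half-site, and of the 3 Bbc3 windows 1 held a half-site with a mismatch. An exact half-site stood in 6 of the 12 windows, those of Trp53 and Bax among them, and in 8.36% of all promoters. A half-site with up to 1 mismatch stood in 7 of the 12 windows and in 39.6% of all promoters, so a match at this looser limit is common. Known p53 sites of several of these genes lie in introns, outside such windows. The probes of the array were not placed on these coordinates.

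The values behind all results come from 1 array per pancreas. The correlation between arrays over all transcript clusters lay between 0.974 and 0.984. Acinar enzyme and transcription factor genes marked the tissue as pancreas, with mean levels of 11.55 to 11.56 in the Sirt1-deficient and 11.49 to 11.53 in the control arrays over 11 genes. Sirt1, read over the gene as a whole and not by exon 4, had 5.59, 5.69 and 5.83 in the Sirt1-deficient pancreata, against 5.84, 5.78 and 5.80 in the control pancreata (limma p = 0.343, exact permutation p = 0.3), which does not check the genotype. For total pancreas the study reported less Sirt1 transcript by RT-qPCR and, by western blot, a smaller Sirt1 protein. In whole pancreas, a change in the share of a cell type and a change of RNA per cell cannot be told apart. The smallest p that an exact permutation of 3 against 3 pancreata can give is 0.1.

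None of the 8 p53 target genes passed the study's threshold, a limma p under 0.01 without adjustment. Of all genes 1.63% passed it, 0.739% as higher and 0.888% as lower in the Sirt1-deficient pancreata, and "passed" refers to this threshold below. With the looser limit of 0.05, 1 of the 8 genes counted as lower, Trp53inp1, and none as higher, beside 6.66% of all genes (3.76% lower and 2.89% higher). After Benjamini-Hochberg adjustment over all genes 0.0135% of genes had a limma p under 0.05, and none of the 8 was among them, with adjusted p-values between 0.66 and 0.998. The fold change was negative in 6 of the 8 genes, compared with 54.9% of all genes, and its median was -0.15 (log2), compared with -0.02 for all genes. All 8 genes read above the dim level, a log2 value of 4.66, which is the 95th percentile of the mean levels of 1105 olfactory receptor genes. The plot of each array's value shows the 8 genes on the same span of the log2 axis.

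**Figure D1:**
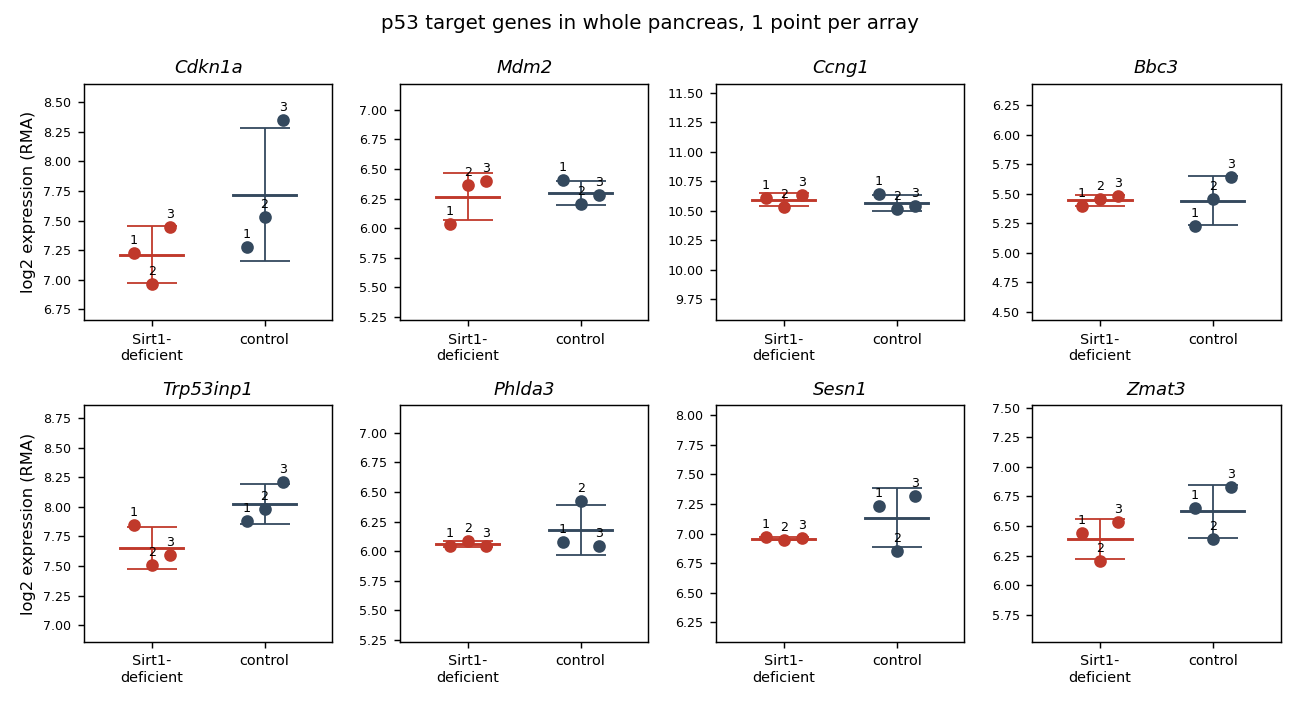
log2 expression of the 8 measured p53 target genes in the 3 Sirt1-deficient (red, left) and 3 control pancreata (dark, right); each point is an array with its replicate number, the long bar is the mean and the error bars are the SD, and every panel spans 2 log2 units. Only Trp53inp1 has no overlap between the groups, and Cdkn1a has the widest spread, with the control pancreas 3 at 8.35.

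Cdkn1a encodes p21, the inhibitor of cyclin-dependent kinases through which p53 halts the cell cycle. It read 7.22, 6.96 and 7.44 in the Sirt1-deficient pancreata, against 7.27, 7.53 and 8.35 in the control pancreata. The groups overlapped, and the control pancreas 3 stood well above the other 5 arrays. The mean was 7.21 ± 0.24 in the Sirt1-deficient and 7.72 ± 0.56 in the control pancreata (SD, n = 3 each), a 1.42-fold lower level and a difference of -0.51 log2 units (SE 0.25, limma p = 0.0718 and adjusted p = 0.783, 2-sided exact permutation p = 0.2). The 95% confidence interval ran from -1.07 to 0.05, so a level more than 2.10-fold lower or 1.04-fold higher lies outside it. The spread of Cdkn1a within the groups was larger than that of 98.7% of all genes, and its level differed by 2.62-fold between the lowest and the highest array. The difference shrank to -0.19, smaller than that of Trp53inp1 (-0.28), when the control pancreas 3 was left out and grew to -0.73 when the control pancreas 1 was. Trp53cor1, the long noncoding RNA also called lincRNA-p21, whose gene lies 11852 bases from Cdkn1a in GRCm38.p6, was looked up after these values were seen. It read 5.63, 5.58 and 5.70 in the Sirt1-deficient pancreata, against 5.37, 5.72 and 5.54 in the control pancreata. The groups overlapped, with a difference of 0.10 log2 units (SE 0.12, limma p = 0.433, exact permutation p = 0.5).

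Mdm2 and Ccng1 belong to the feedback that limits p53. Mdm2, the ubiquitin ligase that marks p53 for degradation, read 6.04, 6.36 and 6.40 in the Sirt1-deficient pancreata, against 6.41, 6.20 and 6.28 in the control pancreata. The groups overlapped widely, with a difference of -0.03 log2 units (SE 0.13, limma p = 0.806, exact permutation p = 0.8) and an interval of -0.32 to 0.25. The sign turned without the Sirt1-deficient pancreas 1, where it was 0.082, and without the control pancreas 1, where it was 0.022. Ccng1, which encodes cyclin G1, a partner of the phosphatase that acts on Mdm2, read 10.61, 10.53 and 10.64 in the Sirt1-deficient pancreata, against 10.64, 10.51 and 10.54 in the control pancreata. It was the steadiest of the 8 genes, with a spread within the groups larger than that of only 5.29% of all genes. The groups differed by 0.03 log2 units (SE 0.10, limma p = 0.781, exact permutation p = 0.8), and the interval of -0.20 to 0.26 leaves a change of more than 1.20-fold in the upward direction outside it.

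Bbc3, Phlda3 and Trp53inp1 promote cell death. Bbc3 encodes PUMA, a BH3-only protein that frees Bax and Bak to open mitochondria. It read 5.39, 5.46 and 5.48 in the Sirt1-deficient pancreata, against 5.23, 5.46 and 5.64 in the control pancreata, and the Sirt1-deficient values all lay within the control range. The difference was 0.0025 log2 units (SE 0.12, limma p = 0.985, exact permutation p = 1), with an interval of -0.28 to 0.28. Phlda3, a pleckstrin homology protein that competes with the kinase Akt for membrane lipids, read 6.04, 6.09 and 6.04 in the Sirt1-deficient pancreata, against 6.08, 6.42 and 6.04 in the control pancreata. Only the control pancreas 2 stood apart from the other 5 arrays. Phlda3 differed by -0.12 log2 units between the groups (SE 0.13, limma p = 0.354, exact permutation p = 0.7), and by -0.00042 without that pancreas.
Trp53inp1 encodes a p53-induced nuclear protein, known for high expression in stressed acinar cells, that links p53 to apoptosis and autophagy. It read 7.85, 7.51 and 7.60 in the Sirt1-deficient pancreata, against 7.88, 7.98 and 8.21 in the control pancreata. All 3 Sirt1-deficient values lay below all 3 control values, although the Sirt1-deficient pancreas 1 was close to the control pancreas 1. It was the only 1 of the 8 genes without overlap, as were 11.7% of all genes. The mean was 7.65 ± 0.18 in the Sirt1-deficient and 8.03 ± 0.17 in the control pancreata (SD, n = 3 each), 1.30-fold lower in the Sirt1-deficient tissue, a difference of -0.37 log2 units (SE 0.13, interval -0.67 to -0.07, limma p = 0.0197 and adjusted p = 0.66, exact permutation p = 0.1, the smallest possible). Of all genes, 2.96% had a smaller p. With 1 array left out at a time, the difference lay between -0.47, without the Sirt1-deficient pancreas 1, and -0.28, without the control pancreas 3, and Trp53inp1 passed only in the first of these cases.

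Sesn1 and Zmat3 serve stress protection and RNA control. Sesn1 encodes sestrin 1, which restrains the growth kinase mTORC1 and limits peroxides. It read 6.97, 6.94 and 6.96 in the Sirt1-deficient pancreata, against 7.23, 6.85 and 7.32 in the control pancreata. The control pancreas 2 was the lowest of all 6 arrays and the remaining controls were the highest. The difference was -0.18 log2 units (SE 0.13, interval -0.48 to 0.12, limma p = 0.215, exact permutation p = 0.4). It was -0.32 without the control pancreas 2 and -0.09 without the control pancreas 3. Zmat3, a zinc finger protein that binds RNA and guides splicing, read 6.44, 6.21 and 6.54 in the Sirt1-deficient pancreata, against 6.65, 6.39 and 6.83 in the control pancreata. The groups overlapped through the control pancreas 2, with a difference of -0.23 log2 units (SE 0.14, interval -0.55 to 0.09, limma p = 0.138, exact permutation p = 0.3). Leaving out the control pancreas 2 gave -0.35, whereas leaving out the Sirt1-deficient pancreas 2 gave -0.14 and leaving out the control pancreas 3 gave -0.13. A further cluster shared by Zmat3 and the gene 4930429B21Rik, which the choice of single symbols left out, read 4.76, 4.85 and 4.62 in the Sirt1-deficient pancreata, against 4.66, 4.98 and 4.69 in the control pancreata. Its difference was -0.03 (log2).

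**Figure D2:**
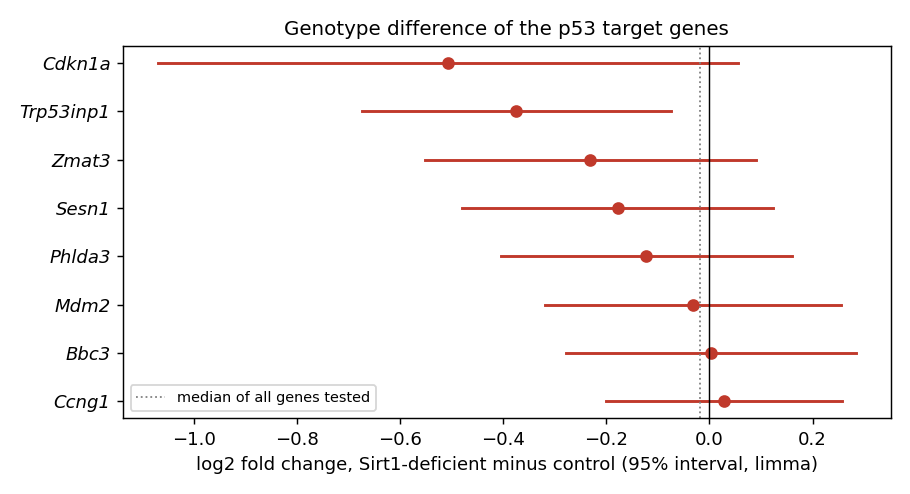
log2 fold change, Sirt1-deficient minus control, of the 8 measured p53 target genes with its 95% confidence interval from limma, ordered from the most negative; the dotted line is the median of all genes tested. The interval of Trp53inp1 (-0.67 to -0.07) is the only one that does not hold 0, and that of Cdkn1a is the widest.

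Several of the 8 genes were high in the same array. The control pancreas 3 held the highest value for 5 of them, Cdkn1a, Bbc3, Sesn1, Zmat3 and Trp53inp1, as it did for 17.2% of all genes. The Sirt1-deficient pancreas 2 held the lowest value for Cdkn1a, Zmat3 and Trp53inp1, as it did for 15.5% of all genes. With each gene set to its own mean over the arrays, the average of the 8 genes was -0.09, -0.15 and -0.02 in the Sirt1-deficient pancreata, against 0.01, 0.01 and 0.24 in the control pancreata. All 3 Sirt1-deficient averages were below all 3 control averages, and the control pancreas 3 lay farthest from the other 5 arrays. Without it the median fold change of the 8 genes was -0.11. Mdm2, Ccng1 and Phlda3 had their highest value in another control pancreas.
Genes of other programmes were also high in the control pancreas 3. Cdkn1a and Sesn1 are also known targets of FoxO factors. Of 15 other measured targets of glucocorticoids and FoxO factors, 7 had their highest value there, and the list's centred means were -0.12, -0.04 and -0.07 in the Sirt1-deficient and 0.11, -0.05 and 0.18 in the control pancreata. Of these 15, Txnip alone passed, as lower, beside 0.888% of all genes. Of 12 endocrine markers, 7 were highest in the control pancreas 3, with centred means of -0.27, -0.03 and -0.17 in the Sirt1-deficient and 0.22, -0.09 and 0.33 in the control pancreata. Ppy, Slc2a2 and Isl1 of this list passed as lower and none as higher, beside 0.888% and 0.739% of all genes. The mean level of the list ranged from 6.80 to 7.04 in the Sirt1-deficient and from 6.97 to 7.40 in the control arrays. The part of either list in the values of the p53 targets was not tested.

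**Figure D3:**
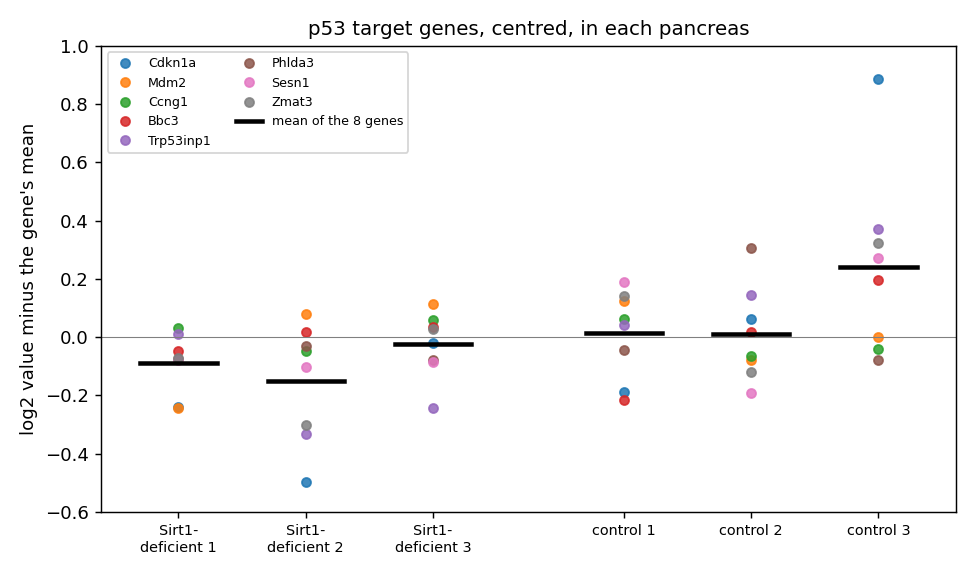
log2 value minus the gene's mean over the 6 arrays for each of the 8 measured p53 target genes (coloured points) in each pancreas, with the average of the 8 genes as a black bar. The bar is highest, at 0.24, in the control pancreas 3, and lowest, at -0.15, in the Sirt1-deficient pancreas 2.

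The close relatives of the 8 genes, looked up after the values of the 8 were seen, did not share 1 direction. Of 10 relatives, 7 had a negative fold change and 1 passed, compared with 54.9% and 1.63% of all genes. Sestrin 2 (Sesn2), induced by p53 and by other stresses, read 5.69, 5.94 and 5.92 in the Sirt1-deficient pancreata, against 6.16, 6.04 and 6.41 in the control pancreata. The groups did not overlap, at a difference of -0.35 log2 units (SE 0.13, limma p = 0.0242, exact permutation p = 0.1). Sestrin 3 (Sesn3), which FoxO factors induce, differed by 0.27 log2 units (SE 0.16, adjusted p = 0.827). Trp53inp2, which acts in autophagy like Trp53inp1, differed by 0.19 (SE 0.13, adjusted p = 0.852), the opposite sign to Trp53inp1.
Phlda2, an imprinted relative of Phlda3 and the 1 that passed, read 3.84, 3.91 and 3.88 in the Sirt1-deficient pancreata, against 4.29, 4.20 and 4.14 in the control pancreata, all below the dim level of 4.66, so this difference lies in the range of genes taken as not expressed. Phlda1, above the dim level, read 5.45, 5.34 and 5.18 in the Sirt1-deficient pancreata, against 5.62, 5.96 and 5.62 in the control pancreata. Its groups did not overlap either, at a difference of -0.41 log2 units (SE 0.13, limma p = 0.0121 and adjusted p = 0.633, exact permutation p = 0.1). Mdm4, the partner of Mdm2 in holding p53 down, differed by -0.14 (SE 0.12, adjusted p = 0.898). The p21 relative Cdkn1b differed by -0.15 (adjusted p = 0.894) and Cdkn1c by -0.02 (adjusted p = 0.991). Ccng2, a cyclin of the same type as Ccng1, differed by -0.03 (adjusted p = 0.985). Some of these relatives, Mdm4 and Ccng2 among them, are also counted in the further p53 targets below.

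Beyond the 8 genes, 61 of 70 further p53 targets were measured, of which 3 passed as higher, none as lower and 58 not at all. Of all genes 0.739% passed as higher. None of the 61 had an adjusted p under 0.05. Their median difference was -0.02 log2 units, as over all genes, and 32 of the 61 were negative.
The largest change among them was in Trim24, of the group that feeds back on p53. It encodes a ubiquitin ligase that targets p53 and also a coregulator of nuclear receptors. Trim24 read 7.88, 7.83 and 7.73 in the Sirt1-deficient pancreata, against 7.31, 7.04 and 7.32 in the control pancreata. The groups were clearly apart, at 7.81 ± 0.08 in the Sirt1-deficient and 7.22 ± 0.16 in the control pancreata (SD, n = 3 each). The level was 1.51-fold higher, a difference of 0.59 log2 units (SE 0.12, limma p = 0.000621 and adjusted p = 0.253, exact permutation p = 0.1), and it passed whichever of the 6 arrays was left out. The other 8 measured genes of that group did not pass.
Of 15 measured p53 targets in apoptosis, Trp53i11 was higher and 14 did not pass. Trp53i11 read 6.45, 6.74 and 6.51 in the Sirt1-deficient pancreata, against 6.15, 6.15 and 6.25 in the control pancreata. Its level was 1.31-fold higher (0.38 log2 units, SE 0.11, limma p = 0.0078 and adjusted p = 0.588, exact permutation p = 0.1). Of the 6 comparisons that each leave out 1 array, it passed in that without the Sirt1-deficient pancreas 1.
Of 19 measured targets in metabolism, redox balance and autophagy, Ulk1 was higher and 18 did not pass. Ulk1, the kinase that starts autophagy, read 7.81, 7.72 and 7.77 in the Sirt1-deficient pancreata, against 7.48, 7.36 and 7.46 in the control pancreata. The groups lay apart, with a level 1.26-fold higher (0.33 log2 units, SE 0.10, limma p = 0.00833 and adjusted p = 0.594, exact permutation p = 0.1). It passed in none of those 6 comparisons, where its difference lay between 0.30 and 0.36.

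The p53 targets of growth arrest and DNA repair gave no call. Of 10 measured targets in the arrest of the cell cycle and growth, none passed. At the limit of 0.05, 1 of them was lower, beside 3.76% of all genes. This was Btg2, an antiproliferative gene that is also an immediate-early gene. It read 8.19, 8.05 and 8.05 in the Sirt1-deficient pancreata, against 8.48, 8.32 and 8.54 in the control pancreata. The groups did not overlap, and differed by -0.35 log2 units (SE 0.11, limma p = 0.0111, exact permutation p = 0.1). Without the control pancreas 2 Btg2 passed, at -0.41. Plk2, a polo-like kinase, came next with 0.23 (SE 0.14, adjusted p = 0.839). Of 8 measured targets in DNA repair and nucleotide supply, none passed at either limit. The smallest p-values belonged to Mgmt, which removes alkyl groups from guanine, with a difference of -0.10 log2 units (adjusted p = 0.939), and to the translesion polymerase gene Polk, with -0.13 (adjusted p = 0.945).
None of 31 measured regulators and partners of the p53 protein passed at either limit, and their median difference was -0.04 log2 units. The smallest p-values were those of the checkpoint kinase gene Chek1 (-0.24, adjusted p = 0.819) and of Trp63, a p53 relative of epithelial stem cells (-0.19, adjusted p = 0.836). Both read below the dim level.
There were 27 measured cell cycle genes that p21 and the DREAM repressor complex lower. Of these, 1 passed as lower and none as higher, beside 0.888% and 0.739% of all genes. The median difference of the 27 was 0.01 log2 units, and 18 of the 27 lay above the dim level. The lower gene was Lmnb1, which encodes lamin B1 of the nuclear envelope. It read 5.46, 5.25 and 5.42 in the Sirt1-deficient pancreata, against 5.76, 5.87 and 5.68 in the control pancreata. The groups were apart, with a 1.31-fold lower level (-0.39 log2 units, SE 0.11, limma p = 0.00608 and adjusted p = 0.566, exact permutation p = 0.1), and it passed in 2 of the 6 comparisons with an array left out, those without the Sirt1-deficient pancreas 1 and without the control pancreas 3.
Of 7 other inhibitors of cyclin-dependent kinases, none passed. Cdkn2b, which encodes p15, differed by -0.34 log2 units (SE 0.13, adjusted p = 0.674) without overlap of the groups, as in 11.7% of all genes. Cdkn2c, which encodes p18, differed by 0.28 (SE 0.15, adjusted p = 0.809). Of 13 measured BCL-2 family genes other than Bax and Bbc3, none passed. The BH3-only gene Bik differed by -0.26 log2 units (SE 0.11, adjusted p = 0.74), also without overlap, and the survival gene Mcl1 by -0.21 (SE 0.14, adjusted p = 0.851).

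**Figure D4:**
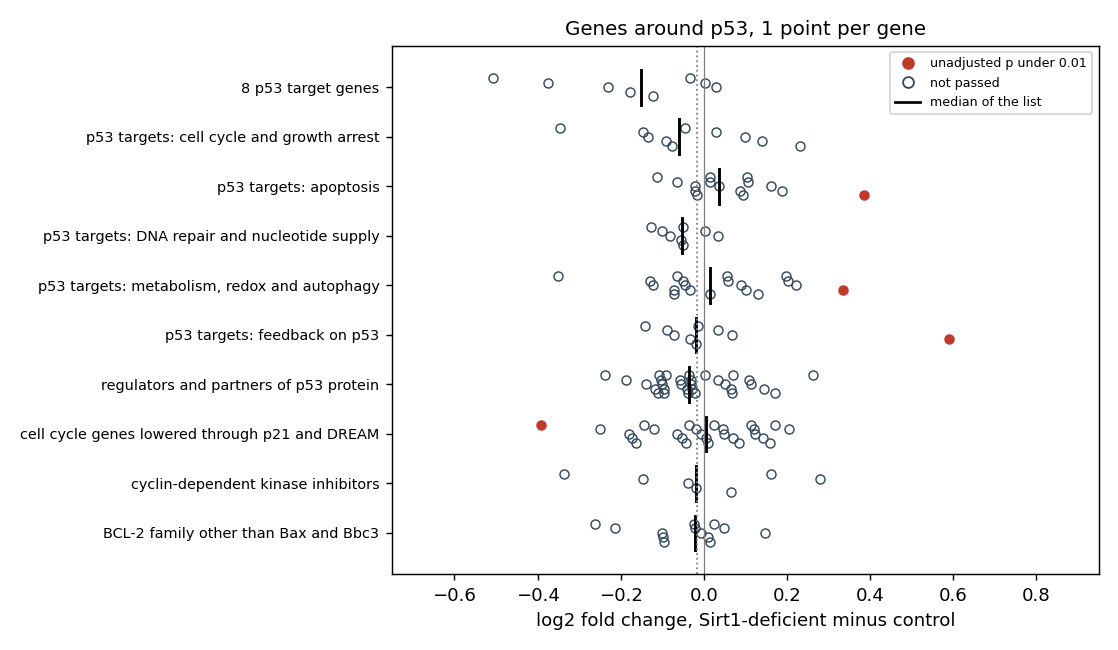
log2 fold change, Sirt1-deficient minus control, of every measured gene in the lists around p53 (1 point per gene, red where limma's p without adjustment was under 0.01); black bars are list medians, the solid line is 0 and the dotted line the median of all genes tested. Trim24, at 0.59, lies farthest to the right, and all list medians lie between -0.15 and 0.04.

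Immediate-early genes include Btg2. Of 19 measured, 4 passed as lower (Fos, Dusp1, Ccn1 and Egr1) and none as higher, beside 0.888% and 0.739% of all genes. All 19 had a negative fold change, compared with 54.9% of all genes. The centred means of the 19 were -0.25, -0.18 and -0.22 in the Sirt1-deficient and 0.38, 0.24 and 0.02 in the control pancreata. Chordc1, Hspa8 and Hsp90aa1 had the smallest p-values among 13 measured heat shock genes. Beside the same shares of all genes, 4 of these 13 passed as lower and none as higher. Their centred means, -0.33, -0.21 and -0.16 in the Sirt1-deficient and 0.41, 0.09 and 0.19 in the control pancreata, were highest in the control pancreas 1, and not in the control pancreas 3 as for the 8 p53 targets.
No gene passed among 11 acinar, 9 duct, 11 fibroblast and stellate cell, 12 macrophage, 11 T, B and NK cell and 9 adipocyte markers. Of 11 endothelial markers, Emcn alone passed, as higher, beside 0.739% of all genes. At the limit of 0.05, 2.89% of all genes were higher and 3.76% lower. Of the markers, 1 acinar, 1 duct and 3 endothelial ones were higher at that limit, and 4 endocrine ones and 1 fibroblast one were lower. Median log2 fold changes were -0.31 for endocrine, -0.19 for fibroblast and stellate, -0.14 for macrophage and -0.08 for T, B and NK markers. They were -0.05 for duct, 0.02 for acinar, 0.04 for adipocyte and 0.19 for endothelial markers, beside -0.02 for all genes. The sign was negative in 10 of the 11 fibroblast and stellate and 3 of the 11 endothelial markers, beside 54.9% of all genes. The part of these genes in the values of the p53 targets was not tested.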

How the data were processed

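Total RNA of whole pancreas was hybridized to GeneChip Mouse Gene 2.0 ST arrays. The deposited values are log2 expression values per transcript cluster, obtained by the authors through oligo's Robust Multi-array Average (background correction, quantile normalization, summary over probes). For the tool versions and the genome build, the sources used here give nothing. RMA compresses differences of dim genes.

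The table held 41345 clusters; 23521 had 1 gene symbol in the platform annotation, and the cluster with the highest mean was kept for each of 22180 genes. All genes entered 1 fit of limma 3.58.1 in R 4.3.3 (lmFit, eBayes, no covariates) of Sirt1-deficient minus control, with an unadjusted p under 0.01 and Benjamini-Hochberg adjusted p under 0.05. Intervals are 95% intervals of that fit. The fit was tested on simulated data. The members and 21 gene lists were chosen with earlier results of these data known. All measured members were named, with Sirt1, the genes of each p53 list that passed (or the 2 with the smallest p), and up to 3 that passed in the other lists; Sesn2, Egr1, Trp53cor1 and the relatives of members were added after values were seen. Promoter sequences are from RefSeq (GRCm38.p6). Alternatives were other centring, normalization, filter, moderation, array weights, replicate block, clusters, thresholds and each array left out. Labels do not say whether mice were littermates.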

Additional observations from a re-analysis of the deposited data

How the results depend on the processing

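Of 112 alternative values of the fold changes of the 8 genes (14 for each gene), 104 kept their direction and their side of the threshold, 2 passed and 6 changed sign. Trp53inp1 passed with an intensity trend and robust moderation and without the Sirt1-deficient pancreas 1, so the count of the 8 genes that passed was 1 there and 1 at an unadjusted p under 0.05; with single arrays left out it ranged from 0 to 1. The log2 fold change of Bbc3, at 0.0025, was -0.013 with array weights and ranged from -0.11 to 0.10 with arrays left out, and that of Mdm2 ranged from -0.098 (without the Sirt1-deficient pancreas 3) to 0.082. The median of the 8 genes lay between -0.20 (without the control pancreas 2) and -0.11 (without the control pancreas 3).

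The count of further p53 targets, 3 of 61, was 5 with array weights (3 higher and 2 lower) and 1 with all transcript clusters in the fit. It was 4 (3 higher and 1 lower) with a second quantile normalization, with only genes above the dim level, and with an intensity trend and robust moderation. At an unadjusted p under 0.05 it was 5 (3 higher and 2 lower), and at an adjusted p under 0.05 it was 0. With arrays left out it ranged from 1 to 2. It was 2 without the Sirt1-deficient pancreas 1 and 2 without the control pancreas 2, where Btg2 passed as lower, and otherwise 1. Over all genes, 361 passed; without single arrays the count ranged from 248 (without the Sirt1-deficient pancreas 1) to 472 (without the control pancreas 2), and it was 574 with all transcript clusters, 1477 at an unadjusted p under 0.05 and 3 at an adjusted p under 0.05. The cause of these shifts was not tested.

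The same-numbered pancreata do not share a stated litter or day, so the numbers were not taken as pairs. Their deviations from the group means correlated at -0.11, 0.16 and 0.16. These values cannot show whether pairs exist, since the deviations of the 3 arrays in a group depend on each other. With the replicate number as a block, 373 genes, none of the 8 p53 targets and 1 further target (Trim24) passed, and the median of the 8 genes was -0.15. With 3 arrays per group, the number of arrays limits every value.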
